A study of Mus musculus with 5 samples.

Results

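The ERBB receptors and their EGF-like ligands were followed in mouse mammary gland as a set of 9 genes, 4 receptor genes (Egfr, Erbb2, Erbb3 and Erbb4) and 5 ligand genes (Nrg1, Tgfa, Btc, Ereg and Hbegf), out of 19938 genes measured. The members were chosen by name, and each had 1 probe set annotated to it alone. Total RNA from the glands of 5 female FvB/N mice, 8 weeks old, was measured on whole-transcript microarrays, 1 array per mouse. The 2 control mice carried the MMTV-rtTA transgene. The 3 cyclin D1 mice carried rtTA together with a CCND1 transgene, so that rtTA, a doxycycline-dependent transcriptional activator under the mouse mammary tumour virus promoter, was common to all 5 animals. Doxycycline was given for 7 days according to the protocol in the labels, which names a KE mutant of the transgene and is silent on the controls. The MMTV promoter is active in mammary epithelium, whereas the RNA came from the whole gland with its fat, stroma, vessels and immune cells. In such tissue fewer cells of a type and less RNA per cell cannot be told apart.

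ERBB receptors are tyrosine kinases of the cell surface that pair with one another after a ligand binds. EGFR binds the ligands made from Tgfa, Btc, Ereg and Hbegf, ERBB3 and ERBB4 bind the neuregulin made from Nrg1, and Btc, Ereg and Hbegf products also bind ERBB4. ERBB2 has no known ligand of its own and serves as the partner of the others, and ERBB3 has little kinase activity and signals through its partner. In the mammary gland EGFR in the stroma takes part in the outgrowth of ducts, and ERBB4 takes part in the differentiation of milk-secreting cells. Cyclin D1 is the regulatory subunit of CDK4 and CDK6 and lies downstream of ERBB signalling in breast epithelium.

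The arrays differed in spread, which bears on every value below. Across genes, the log2 values had an SD of 0.735 and 0.926 for the controls and of 1.20 to 1.38 for the cyclin D1 arrays. Control replicate 1 correlated with the other arrays at Pearson r of 0.701 to 0.779 across genes, and the cyclin D1 arrays with one another at 0.955 to 0.962. Differences are therefore given on the deposited log2 scale and again with all 5 arrays forced to one distribution by quantile normalization (renormalized). The limma test called 1072 genes higher and 137 lower in cyclin D1 glands as deposited, and 51 and 21 after renormalization. It called 0 genes without control replicate 1, where 4973 genes had an unadjusted p under 0.05, 0 without cyclin D1 replicate 1 (3568 genes) and 0 without cyclin D1 replicate 2 (3491 genes), so no call below held in those fits. With cyclin D1 replicate 3 left out it called 299 higher and 2 lower, and with control replicate 2 left out 1365 higher and 1063 lower. No detection calls were available, and each array's mean over 1027 olfactory receptor genes, a family active in the nose, served as a rough floor. This floor was 2.52 and 2.38 in the controls and 1.97 to 2.24 in the cyclin D1 arrays.

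Of the 9 members, 0 passed the limma test at an adjusted p of 0.05, where 5.38% of all genes passed as higher, 0.687% as lower and 6.06% in either direction. After renormalization 0 of 9 passed, against 0.256% of all genes as higher, 0.105% as lower and 0.361% in either direction. At an unadjusted p under 0.05 there was 1 member, Erbb2, where 26.3% of all genes reached that value. After renormalization 2 members had an unadjusted p under 0.05, where 18.7% of all genes did. The median difference, cyclin D1 minus control, was -0.09 on the log2 scale over the 9 members and -0.05 over all genes. Egfr had the highest difference, at 0.40, and Erbb2, Btc and Tgfa had the lowest, at -0.40, -0.40 and -0.38. The groups did not overlap in 3 members, with Egfr higher and Erbb2 and Tgfa lower in cyclin D1 glands. Such a separation was found in 22.4% of all genes with cyclin D1 higher, in 22.6% with cyclin D1 lower and in 45.0% in either direction.

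**Figure D1:**
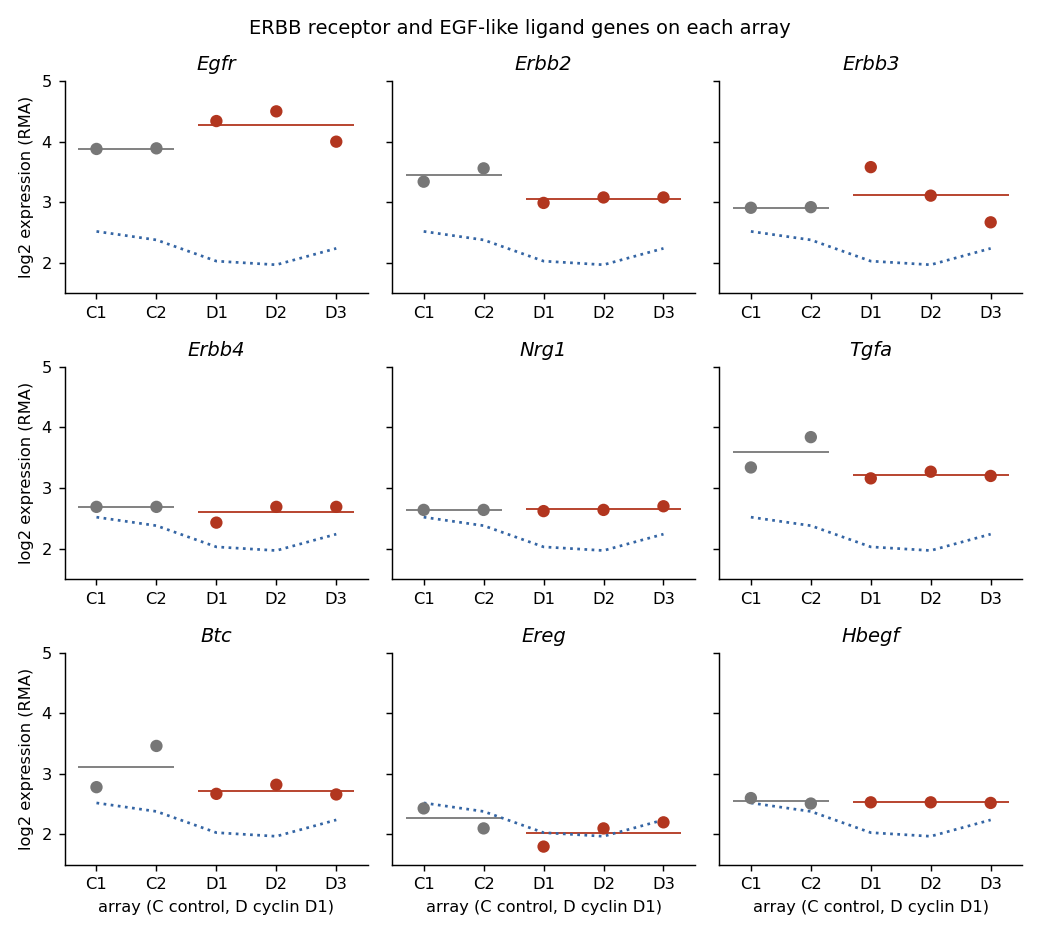
Log2 expression (y axis) of each of the 9 genes on the 5 arrays (x axis; C1 and C2 are the controls, D1 to D3 the cyclin D1 glands), with horizontal lines at the group means and a dotted line at each array's olfactory receptor mean. Erbb2 lies at 3.34 and 3.56 in the controls and at 2.99 to 3.08 in the cyclin D1 glands, and the points of Ereg lie close to the dotted line.

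Egfr, the receptor of EGF, TGF-alpha and amphiregulin, had log2 expression of 3.88 and 3.89 in control replicates 1 and 2 and of 4.34, 4.5 and 4.0 in cyclin D1 replicates 1, 2 and 3 (probe set 10374366). All 3 cyclin D1 glands stood above both controls, with replicate 3 close to them. The group means were 3.88 ± 0.00 (SD, n = 2) for control and 4.28 ± 0.26 (SD, n = 3) for cyclin D1. The log2 difference of 0.40 (SE 0.19, 95% interval -0.07 to 0.86) did not pass (limma adjusted p = 0.249). After renormalization the sign turned, to -0.45 (SE 0.20, limma adjusted p = 0.308), with control replicate 1 at 4.74 as the highest of the 5 values. Egfr was 1.36 and 1.5 above the floor on the control arrays, compared with 2.31, 2.54 and 1.76 on the cyclin D1 arrays, where the groups stayed apart. The genes in the same decile of mean expression as Egfr had a median difference of 0.67, and 34.6% of them had a smaller difference than Egfr.

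Erbb2, the partner of the other receptors, had log2 expression of 3.34 and 3.56 in the controls and of 2.99, 3.08 and 3.08 in the cyclin D1 glands (probe set 10380896). Both controls stood above all 3 cyclin D1 glands. The group means were 3.45 ± 0.15 (SD, n = 2) for control and 3.05 ± 0.05 (SD, n = 3) for cyclin D1. Their difference of -0.40 (SE 0.14, 95% interval -0.75 to -0.06) did not pass after adjustment over all genes (limma adjusted p = 0.145). The renormalized difference was -0.60 (SE 0.13, limma adjusted p = 0.103). The median difference was 0.03 among genes in the same decile of mean expression, of which 10.9% lay below Erbb2. Renormalized and without control replicate 1, with control replicate 2 as the only control, the difference of Erbb2 was -0.73. Control replicate 2 had the highest Erbb2 value of all arrays. Measured from each array's floor, Erbb2 was 0.82 and 1.18 above it on the control arrays, compared with 0.96, 1.11 and 0.84 on the cyclin D1 arrays, and the groups overlapped.

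A further probe set, 10504755, is annotated to both Erbb2 and Sympk and was not assigned to either gene. It read 7.37 and 8.41 in the controls and 10.66, 11.25 and 10.53 in the cyclin D1 glands, and was brighter than 99.7% of all probe sets. The probe set annotated to Erbb2 alone lay in the opposite direction. Of 3 probe sets annotated to Sympk alone, 10401933 and 10504759 held the same values and were 3.71 higher in cyclin D1 glands on the log2 scale, whereas 10550531 differed by -0.02. Probe sets with several symbols were left out for all genes whatever their values, so the shared probe set is not given as expression of Erbb2. By mean signal alone it would have stood for Erbb2, with a difference of 2.92 in place of -0.40. Which of the 2 genes it measures was not tested.

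The promoters of Egfr and Erbb2 are shown because the deposited values of these receptors were separated between the groups in opposite directions. The sequences are those of RefSeq (GRCm38.p6), with 250 bases before and 30 after the annotated transcription start, on the + strand at chr11:16751953-16752232 for Egfr and chr11:98412234-98412513 for Erbb2. Capitals mark TCCTCC on either strand (read as GGAGGA on the opposite strand). A promoter was found in the RefSeq table for 5 of the 9 members.
Egfr: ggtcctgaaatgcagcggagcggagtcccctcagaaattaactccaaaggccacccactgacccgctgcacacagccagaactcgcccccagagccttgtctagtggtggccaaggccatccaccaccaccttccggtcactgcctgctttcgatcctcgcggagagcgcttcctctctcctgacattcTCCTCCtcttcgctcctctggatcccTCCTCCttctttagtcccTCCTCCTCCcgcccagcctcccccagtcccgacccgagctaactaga
Erbb2: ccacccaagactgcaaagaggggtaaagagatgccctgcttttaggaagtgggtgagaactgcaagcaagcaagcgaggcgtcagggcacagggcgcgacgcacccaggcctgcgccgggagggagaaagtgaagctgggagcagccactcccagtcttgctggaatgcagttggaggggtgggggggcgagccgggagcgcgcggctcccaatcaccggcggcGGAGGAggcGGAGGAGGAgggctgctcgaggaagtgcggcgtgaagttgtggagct
Egfr held TCCTCC 4 times on its own strand, from position -61 to -14 relative to the start, of which the last 2 overlap. Erbb2 held it 3 times on the opposite strand, from -26 to -14, with the last 2 again overlapping. TCCTCC occurs on either strand in 32.3% of the 32851 promoter windows of this length. Neither sequence held TATAAA on either strand, which 13.1% of windows do. Egfr held GGGCGG 1 time, on the opposite strand at -9, and Erbb2 0 times, where 34.7% of windows hold it on either strand. Erbb2 held GAGGAAG, which contains the GGAA core of ETS factor sites, on its own strand from position 2, and Egfr held it on the opposite strand at -81, as 12.2% of windows do on either strand. The G and C content was 61.1% in Egfr and 65.4% in Erbb2, with a median of 52.5% over all windows. These matches describe the letters and were not tested as binding sites.

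Erbb3, the neuregulin receptor that signals through its partner, had log2 expression of 2.91 and 2.92 in the controls and of 3.58, 3.11 and 2.67 in the cyclin D1 glands (probe set 10373467). The cyclin D1 glands lay on both sides of the controls. The difference was 0.20 (SE 0.28, 95% interval -0.50 to 0.91, limma adjusted p = 0.668), and 0.19 after renormalization. Without cyclin D1 replicate 1, the highest of the 5 values, it was -0.03.

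Erbb4, the neuregulin receptor with full kinase activity, had a log2 value of 2.69 on 4 arrays and of 2.43 in cyclin D1 replicate 1 (probe set 10355278). The value was identical to all deposited decimals in both controls and cyclin D1 replicate 3. The difference was -0.09 (SE 0.15, 95% interval -0.46 to 0.28, limma adjusted p = 0.726), and 0.03 after renormalization. Erbb4 lay 0.17 and 0.31 above the floor in the controls and 0.40 to 0.72 above it in the cyclin D1 glands. Measured from the floor its groups thus did not overlap, with the floor itself lower on the cyclin D1 arrays. Such identical values on 2 or more arrays occurred in 4 members, Erbb2, Erbb4, Nrg1 and Hbegf, and in 19.9% of all genes.

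Within each array the value of one receptor was also set against that of another, which shows unequal change and not which receptor is more abundant. In 6 pairs of receptors, compared with a two-sided exact permutation test over the 5 arrays, the smallest p that the design allows is 0.1. Egfr minus Erbb2 was 0.54 and 0.32 in the controls and 1.35, 1.42 and 0.92 in the cyclin D1 glands, a shift of 0.80 (exact permutation p = 0.1, 0.30 after Benjamini-Hochberg adjustment over the 6 pairs). This shift was 0.15 after renormalization. Erbb2 minus Erbb4 shifted by -0.32 (exact permutation p = 0.1, adjusted 0.30) and by -0.63 after renormalization. Egfr minus Erbb4 shifted by 0.48 (exact permutation p = 0.2), with the sign turned to -0.48 after renormalization. Erbb2 minus Erbb3 shifted by -0.61 (exact permutation p = 0.2), and by -0.79 after renormalization. The deposited values of these 4 pairs did not overlap between the groups, as was found in 45.0% of all single genes in either direction. The pairs share receptors and are not separate observations. Egfr minus Erbb3 shifted by 0.19 (exact permutation p = 0.4), with the sign turned to -0.64 after renormalization, and Erbb3 minus Erbb4 by 0.29 (exact permutation p = 0.7) and 0.17, and in both of these pairs the groups overlapped. The design could not take any pair below a p of 0.05.

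**Figure D2:**
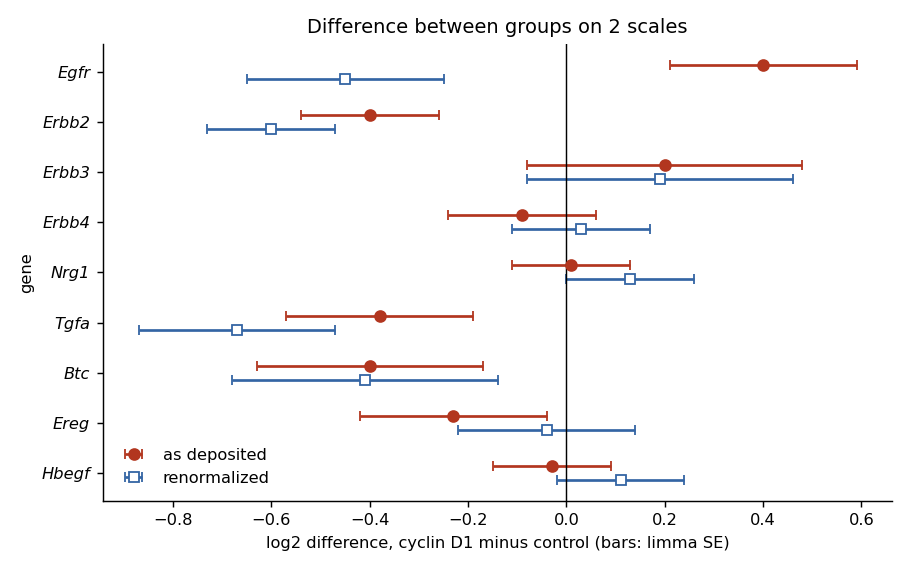
Log2 difference, cyclin D1 minus control, with its limma SE (x axis) for the 9 genes (y axis), as deposited (filled circles) and renormalized (open squares). Egfr moves from 0.40 to -0.45, whereas Erbb2 (-0.40 and -0.60), Tgfa (-0.38 and -0.67) and Btc (-0.40 and -0.41) stay below 0 on both scales.

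Among the ligands, Tgfa encodes TGF-alpha, an EGFR ligand made by mammary epithelium. Its log2 expression was 3.34 and 3.84 in the controls and 3.16, 3.27 and 3.20 in the cyclin D1 glands (probe set 10539692). All 3 cyclin D1 glands stood below both controls, with control replicate 1 only slightly above them. The group means were 3.59 ± 0.35 (SD, n = 2) for control and 3.21 ± 0.05 (SD, n = 3) for cyclin D1. The difference was -0.38 (SE 0.19, 95% interval -0.85 to 0.09, limma adjusted p = 0.262), and -0.67 after renormalization (limma adjusted p = 0.171). Tgfa was 0.82 and 1.46 above the floor on the control arrays, compared with 1.13, 1.3 and 0.97 on the cyclin D1 arrays, and the groups overlapped. The size of the deposited difference rested on control replicate 2, without which it was -0.13, and it was -0.63 without control replicate 1. Renormalized and with control replicate 2, the array with the highest Tgfa value, as the only control, it was -1.05.

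Btc, which encodes betacellulin, a ligand of EGFR and ERBB4, had log2 expression of 2.78 and 3.46 in the controls and of 2.67, 2.82 and 2.66 in the cyclin D1 glands (probe set 10531274). Control replicate 2 stood above the other 4 arrays, and control replicate 1 lay within the range of the cyclin D1 glands. The difference was -0.40 (SE 0.23, 95% interval -0.98 to 0.17, limma adjusted p = 0.316), and -0.41 after renormalization. Btc was 0.26 and 1.08 above the floor on the control arrays, compared with 0.64, 0.85 and 0.43 on the cyclin D1 arrays. The deposited difference was -0.07 without control replicate 2 and -0.74 without control replicate 1. Renormalized and with control replicate 2 as the only control, it was -0.90.

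Ereg, which encodes epiregulin, read 2.43 and 2.10 in the controls and 1.80, 2.10 and 2.20 in the cyclin D1 glands (probe set 10523175). Both controls and 2 of the 3 cyclin D1 glands lay at or below the floor, so its log2 difference of -0.23 (SE 0.19, limma adjusted p = 0.463) compares values that may hold no signal. In the RefSeq table Epgn, Ereg, Areg and Btc follow one another on chromosome 5 with 0 protein-coding genes between neighbours.

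Nrg1, the neuregulin that binds ERBB3 and ERBB4, read 2.64 in both controls and 2.62, 2.64 and 2.70 in the cyclin D1 glands (probe set 10578045). The groups overlapped, with a difference of 0.01 (SE 0.12, 95% interval -0.29 to 0.32, limma adjusted p = 0.953), and 0.13 after renormalization. Hbegf, which encodes heparin-binding EGF-like growth factor, read 2.60 and 2.51 in the controls and 2.53, 2.53 and 2.52 in the cyclin D1 glands (probe set 10458340). Its difference was -0.03 (SE 0.12, 95% interval -0.34 to 0.28, limma adjusted p = 0.887), and 0.11 after renormalization. Nrg1 lay 0.12 and 0.26 above the floor on the control arrays and 0.59, 0.68 and 0.46 above it on the cyclin D1 arrays. For Hbegf these values were 0.08 and 0.13 against 0.50, 0.56 and 0.28. Measured in this way neither gene's groups overlapped, with the floor itself lower on the cyclin D1 arrays. The share of all genes that separate in this way was not counted. A transcript near the limit of detection could differ without being seen here.

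**Figure D3:**
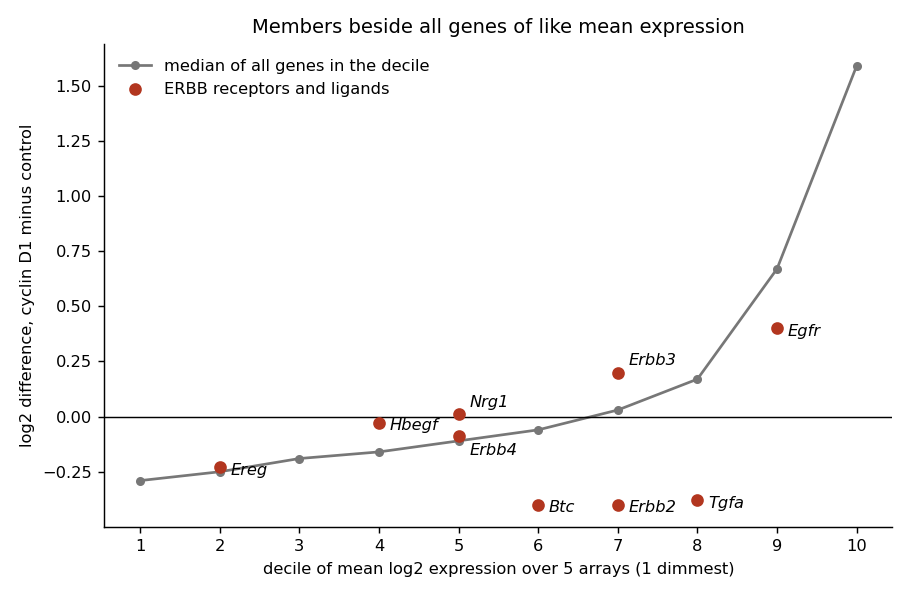
Log2 difference, cyclin D1 minus control (y axis), of the 9 genes (red points) at their decile of mean expression over the 5 arrays (x axis, 1 is the dimmest), beside the median of all genes in each decile (grey line). The grey line runs from -0.29 to 1.59, Egfr lies below it at 0.40 against 0.67, and Tgfa at -0.38 against 0.17.

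As deposited, differences followed expression level across all genes, and the members were read beside that trend. In the decile of Tgfa the median difference was 0.17 and 7.72% of genes lay below Tgfa. In the decile of Btc the median was -0.06 and 14.0% lay below it. Erbb4, Nrg1, Ereg and Hbegf lay nearer to the middle of their deciles, with 53.0% to 68.0% of genes below them. These shares describe the arrays and are no test.

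The genes whose profile over the 5 arrays was most like that of each receptor were found by the root mean square difference of values centred on each gene's mean. For Egfr these were Akr1e1 (0.0446 on the log2 scale) and Med4 (0.0465), and for Erbb2 they were Ppp1r16b (0.0150) and Zc4h2 (0.0193). For Erbb3 they were Ccl17 (0.0631) and Zfp60 (0.0744). For Erbb4 they were Zscan22 (0.00182) and Sstr3 (0.00367), which share its near-identical values on 4 arrays. With 19938 genes and 5 arrays such matches are a description only.

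The other EGF-like ligands gave 0 of 5 measured genes that passed, with a median log2 difference of -0.23. For this and the following lists, the shares of all genes that passed were 5.38% as higher and 0.687% as lower. After renormalization these shares were 0.256% and 0.105%. As deposited, 13.4% of genes in decile 9 of mean expression and 36% in decile 10 passed as higher, so brighter genes passed more often. Nrg2, a further neuregulin, read 3.16 and 3.17 in the controls and 2.72, 2.83 and 2.84 in the cyclin D1 glands, all below the controls, a difference of -0.37 (SE 0.13, limma adjusted p = 0.147) and -0.40 after renormalization. Nrg3 differed by -0.34 (SE 0.23, limma adjusted p = 0.381), with 1 control and 2 cyclin D1 glands at or below the floor.

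Of 9 sheddases and iRhoms, which free EGF-like ligands from the cell surface, 1 rose and 0 fell. Adam10, the protease that releases betacellulin and EGF, read 2.84 and 3.40 in the controls and 5.93, 5.66 and 5.32 in the cyclin D1 glands. Its log2 rise of 2.52 (SE 0.26, limma adjusted p = 0.0169) is a 5.72-fold higher signal. The gene differed by 1.95 after renormalization (limma adjusted p = 0.0528). Adam17, the main protease for TGF-alpha and heparin-binding EGF-like growth factor, read 3.19 and 3.79 in the controls and 4.57, 4.61 and 4.20 in the cyclin D1 glands. The groups did not overlap, and the difference of 0.97 (SE 0.24, limma adjusted p = 0.0775) became 0.49 after renormalization. The median of the list was 0.06, and 0.23 after renormalization, where 0 of 9 passed.

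Of 12 measured genes of the adaptors and the RAS-ERK cascade 2 rose and 0 fell, with a median of 0.48. Sos1, the exchange factor that loads RAS with GTP, read 3.71 and 3.74 in the controls and 4.90, 5.05 and 4.66 in the cyclin D1 glands, a rise of 1.14 (SE 0.16, limma adjusted p = 0.0274) with 0.32 after renormalization. Nras rose by 0.99 (SE 0.19, limma adjusted p = 0.0456), but its renormalized difference of -0.12 had the other sign. The median of the list also turned, to -0.11, and 0 of 12 passed then.

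Of 12 measured genes of the PI3K-AKT branch 3 rose and 0 fell, with a median of 0.47 and 0.30 after renormalization, where 0 passed. Pik3r1, the regulatory subunit of PI3K, read 5.49 in both controls and 7.53, 7.90 and 7.49 in the cyclin D1 glands, a rise of 2.15 (SE 0.17, limma adjusted p = 0.0157) with 0.33 after renormalization. The catalytic subunit genes Pik3ca and Pik3cb rose by 1.32 (SE 0.16, limma adjusted p = 0.0213) and 1.57 (SE 0.19, limma adjusted p = 0.0214). Their renormalized differences were 0.51 and 1.45, and Pik3cb lay at or below the floor in 1 control.

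Of 16 genes that restrain ERBB signalling, by blocking the receptors, by their turnover or by feedback, 2 rose and 0 fell, with a median of 0.24 and 0.23 after renormalization. Socs4 and Socs5, suppressors of cytokine signalling that also act on EGFR, rose by 1.35 (SE 0.25, limma adjusted p = 0.0424) and 0.66 (SE 0.13, limma adjusted p = 0.0493). Neither passed after renormalization, with differences of 0.91 and 0.55. Errfi1, which encodes a direct inhibitor of the EGFR kinase and was named after its values were seen, read 3.79 and 3.44 in the controls and 5.41, 4.66 and 4.73 in the cyclin D1 glands, a difference of 1.32 (limma adjusted p = 0.0571) that became 0.50 after renormalization.

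Of 14 immediate-early and ERK-responsive genes 0 rose and 0 fell, with a median of -0.14 and -0.33 after renormalization. Dusp5, a phosphatase of ERK induced by ERK itself, read 3.99 and 4.35 in the controls and 3.46, 3.41 and 3.51 in the cyclin D1 glands, all below the controls. Its difference of -0.71 (SE 0.16) did not pass as deposited (limma adjusted p = 0.066), and the renormalized one of -1.51 did (limma adjusted p = 0.0434). Etv4, an ETS factor of the same response, differed by -0.80 (SE 0.26, limma adjusted p = 0.133), with -0.91 after renormalization. It lay at or below the floor in 1 cyclin D1 gland.

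Of 12 other receptor tyrosine kinases of the gland 2 rose and 0 fell, with a median of -0.01. Met, the receptor of hepatocyte growth factor, read 2.91 and 2.99 in the controls and 4.96, 5.46 and 4.79 in the cyclin D1 glands. It rose by 2.12 (SE 0.23, limma adjusted p = 0.0178) and passed after renormalization as well, at 1.71 (limma adjusted p = 0.0434). Insr, the insulin receptor, rose by 1.32 (SE 0.22, limma adjusted p = 0.0358), but its renormalized difference of -0.47 had the other sign. With the mean of its 2 probe sets in place of the brighter one, the Insr difference was 0.97 and did not pass (limma adjusted p = 0.0958). Among receptor genes of the gland the ERBB family held 0 of 4 that passed and the other list 2 of 12. Of all genes 6.06% passed in either direction. Counts this small do not tell the lists apart, and the difference was not tested.

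**Figure D4:**
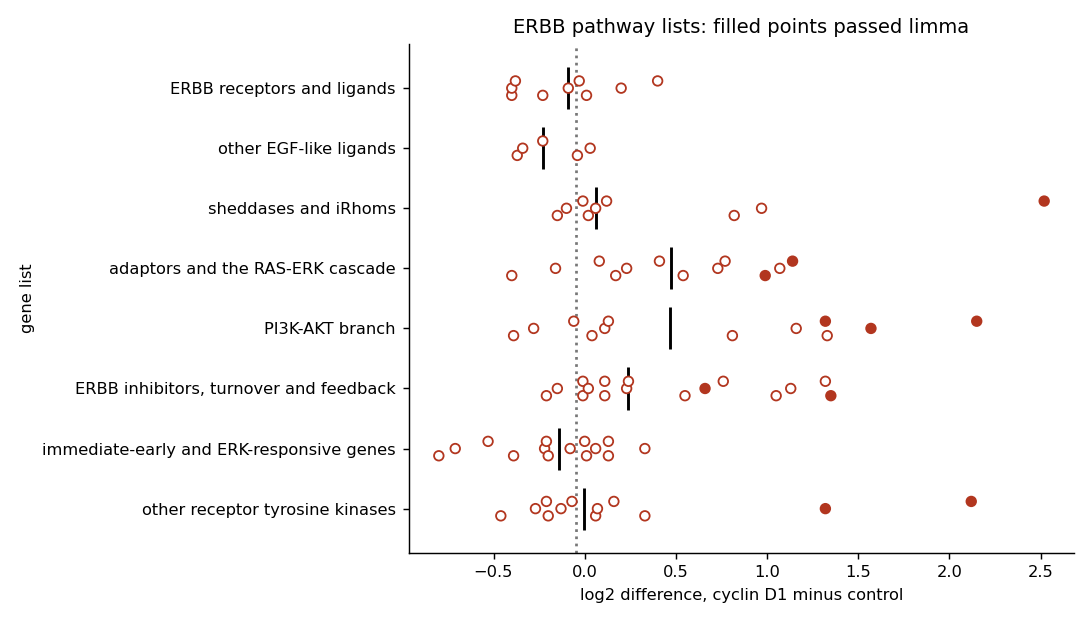
Log2 difference, cyclin D1 minus control (x axis), of each gene in the ERBB set and in 7 related lists (y axis); filled points passed limma, short black lines are list medians and the dotted line is the median of all genes at -0.05. The filled points lie to the right of the dotted line, from Socs5 at 0.66 to Adam10 at 2.52, and the ERBB row has 0 filled points.

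Markers of epithelium differed between the groups beside these values. Of 7 luminal markers 2 rose and 0 fell, where 5.38% of all genes passed as higher and 0.687% as lower. In decile 10 of mean expression, the brightest, 36% of genes passed as higher. Epcam rose by 2.49 (SE 0.28, limma adjusted p = 0.0184) and Cdh1, which encodes E-cadherin, by 1.37 (SE 0.17, limma adjusted p = 0.0228). The summed signal of the 7 luminal genes, as log2 of summed linear values, was 6.47 to 6.50 in controls and 7.57 to 8.08 in cyclin D1 glands. Over all 19938 genes the same sum was 17.6 to 17.9 in controls and 18.41 to 18.66 in cyclin D1 glands. A higher sum in cyclin D1 glands is thus not particular to a marker list. Of 5 genes of milk-secreting cells 3 rose, Csn1s1, Csn3 and Elf5 (2.08, 2.52 and 3.43). The sum of all 5 was 11.11 to 11.97 against 13.10 to 13.44. It includes the bright Csn2, at 10.44 and 11.28 in the controls, which did not pass (limma adjusted p = 0.153) and differed by -0.09 after renormalization. Of 8 basal and myoepithelial genes Acta2 alone rose, by 2.48, and Myh11 differed by 1.66 without passing. The list was mixed in direction, with 5 positive differences and 3 negative ones, Krt14 (-0.10), Krt17 (-0.25) and Oxtr (-0.29). The sum of the list, in which the brightest genes weigh most, was 6.26 to 6.80 against 7.46 to 8.37. After renormalization 0 genes of these 3 lists passed, where 0.361% of all genes did. The median log2 difference of the luminal list was 0.92 as deposited and 0.45 after renormalization. It was 2.52 and 1.14 for the milk-secreting list and 0.45 and 0.16 for the basal and myoepithelial list. Over all genes it was -0.05 and -0.02.

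The other marker lists held 0 genes that passed, and are likewise set beside the higher sum over all genes. Their sums were 9.52 to 9.88 in controls against 8.71 to 10.74 in cyclin D1 glands for 7 adipocyte genes, 7.10 to 8.81 against 8.39 to 9.34 for 7 fibroblast genes and 5.65 to 5.94 against 5.89 to 6.60 for 6 endothelial genes. They were 6.25 to 7.01 against 6.63 to 8.26 for 6 macrophage and myeloid genes, 5.41 to 5.45 against 4.93 to 6.21 for 5 lymphocyte genes, 5.64 to 5.75 against 5.88 to 5.95 for 3 Schwann cell genes and 5.31 to 5.40 against 5.12 to 5.20 for 5 skeletal muscle genes. Erbb2 was lower and the luminal markers higher in the cyclin D1 glands as deposited, and a link between them was not tested. The Erbb2 difference did not pass, and measured from the floor its groups overlapped. The part of cell composition and of the arrays' unequal spread in the values of the ERBB genes was not tested.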

How the data were processed

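The deposited table gives log2 expression per probe set; per the submitters' processing notes, RMA and Affymetrix Expression Console 1.1 were used by the authors. The log base was inferred from their range of 0.83 to 12.9; the arrays normalized together are not given in the sources used here. Of 35556 probe sets 21789 had 1 gene symbol in the platform annotation, 1621 several and 12146 none; 21698 matched RefSeq (GRCm38.p6) by Entrez identifier. The probe set with the highest mean stood for each gene, 19938 in all, with no filter on dim genes.

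Groups came from sample titles, and the design text calls the mice separate animals. The test was that of limma 3.58.1 (R 4.3.3; lmFit, then eBayes, two-sided, with 3 residual and 2.39 prior degrees of freedom), adjusted by Benjamini-Hochberg over all genes, with a threshold of 0.05. The fit was tested on simulated data. Members were named by rule and not by a measured value, whereas the lists and the floor were chosen with earlier results of these data known. Named were all members and, per pathway or epithelial marker list, those that passed (at most 4 by smallest p) or, where fewer than 2 passed, the 2 with the smallest p, plus the 2 most similar genes per receptor; other marker lists are summed. Alternatives were the prior, normalization, dim-gene filter, probe-set rule, array weights, replicate block and each array left out. The number of arrays limits the precision.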

Additional observations from a re-analysis of the deposited data

How the results depend on the processing

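In the alternatives run, the 9 members stayed short of the threshold, with one exception: renormalized and without control replicate 1, 3 members passed as lower, Erbb2 (-0.73), Tgfa (-1.05) and Btc (-0.90), in a fit that called 555 genes higher and 894 lower. Erbb2, Tgfa and Btc kept a negative sign in all 15 alternatives, none of which measured values from the floor, from -0.73 to -0.29, -1.05 to -0.13 and -0.90 to -0.07. The probe set shared by Erbb2 and Sympk, which was 2.92 higher in cyclin D1 glands, was left out of every alternative. Renormalization turned the sign of Egfr (-0.45), Erbb4 (0.03), Hbegf (0.11), Nras (-0.12) and Insr (-0.47) and gave 51 and 21 calls. Renormalized without control replicate 1, the sign also turned for Egfr (-0.21), Erbb4 (0.02), Ereg (0.11), Hbegf (0.14) and Myh11 (-0.39). Median centring turned Hbegf (0.04). The filter on dim genes left out Erbb4, Nrg1, Ereg and Hbegf.

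With one array left out, calls ranged from 0 to 1365 higher and 0 to 1063 lower, and the difference ran from -0.03 to 0.43 for Erbb3 (-0.03 without cyclin D1 replicate 1), from -0.01 to 0.03 for Nrg1 (-0.01 without cyclin D1 replicate 3) and from -0.07 to 0.01 for Hbegf (0.01 without control replicate 1). An intensity trend gave 622 higher calls, and array weights 263 higher and 4 lower. With the replicate number as a block, calls were 1137 higher and 10 lower and Nrg1 was at -0.01. Deviations of same-numbered mice from their group means correlated at -0.026 and 0.13. With 2 controls the control deviations mirror each other, so these values cannot show whether the numbers pair the mice. The causes of these changes were not tested. Of 343 values of the 23 other named genes under the alternatives, 226 kept direction and side of the threshold, 109 lost the call, 5 gained it and 3 turned sign.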
